A study of Mus musculus with 8 samples.

Results

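*Cx3cr1*, the fractalkine receptor gene of microglia, was examined together with 7 further microglia genes, *P2ry12*, *Tmem119*, *Csf1r*, *Abi3*, *Trem2*, *Tyrobp* and *Siglech*, in bulk RNA-seq of mouse ventral hippocampus. These 8 genes are 8 of the 50686 genes in the deposited count table. *Cx3cr1* was chosen because its counts were lower after corticosterone in these same libraries, and the other 7 because they are expressed by microglia. The difference between the treatments in the 8 genes is therefore a description, and where the number of them past a threshold is given beside the share of all genes, nothing is read from it. The animals were male C57B6/J (C57BL/6J) mice of 8 weeks. They received 1 injection of either vehicle (n = 4, libraries numbered 1 to 4) or 3 mg/kg corticosterone, the main glucocorticoid of rodents (n = 4, libraries 5 to 8). The ventral hippocampus was taken 3 h later. The labels name no batch, and the libraries are of whole tissue, with no sorting of cells.

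Microglia are the resident macrophages of the brain. In the undisturbed adult brain they express a homeostatic set of surface receptors with which they sense neurons and damage, and several of these genes, such as *Cx3cr1*, *P2ry12* and *Tmem119*, are reduced when microglia become reactive, while *Trem2* and *Tyrobp* are increased in some reactive states. Corticosterone acts through the glucocorticoid receptor (GR), which microglia express, and the mineralocorticoid receptor. Of the products of the 8 genes, CX3CR1 binds fractalkine, P2RY12 binds ADP released from damaged cells and steers microglial processes, and CSF1R transmits the signal on which survival of microglia depends. TREM2, a receptor for lipids and lipoproteins, and Siglec-H, a sialic acid-binding lectin, both signal through the adaptor TYROBP (DAP12). TMEM119 is a membrane protein used as a marker of microglia, and ABI3 is a subunit of a complex that regulates the actin skeleton.

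The 250 bases before the RefSeq start (GRCm38.p6) were at hand for 4 of the 8 genes and are shown to set *Cx3cr1* and *P2ry12*, whose values did not overlap between the treatments, beside *Trem2* and *Siglech*, whose values did. The windows are chr9:120068297-120068546 (minus strand) for *Cx3cr1*, chr3:59262986-59263235 (minus strand) for *P2ry12*, chr17:48346151-48346400 (plus strand) for *Trem2* and chr7:55767934-55768183 (plus strand) for *Siglech*. They read 5′ to 3′ along the gene, and capitals mark a match to the core letters GAGGAA bound by PU.1, the factor encoded by *Spi1*, here on the opposite strand.
Cx3cr1: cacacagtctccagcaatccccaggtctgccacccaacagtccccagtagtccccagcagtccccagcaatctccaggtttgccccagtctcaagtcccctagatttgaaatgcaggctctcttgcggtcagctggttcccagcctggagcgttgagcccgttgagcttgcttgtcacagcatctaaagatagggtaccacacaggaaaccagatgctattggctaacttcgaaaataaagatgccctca
P2ry12: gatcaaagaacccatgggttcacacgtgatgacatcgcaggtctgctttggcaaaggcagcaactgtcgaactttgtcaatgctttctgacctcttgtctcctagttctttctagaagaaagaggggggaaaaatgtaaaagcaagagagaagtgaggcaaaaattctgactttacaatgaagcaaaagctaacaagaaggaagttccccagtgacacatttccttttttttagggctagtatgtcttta
Trem2: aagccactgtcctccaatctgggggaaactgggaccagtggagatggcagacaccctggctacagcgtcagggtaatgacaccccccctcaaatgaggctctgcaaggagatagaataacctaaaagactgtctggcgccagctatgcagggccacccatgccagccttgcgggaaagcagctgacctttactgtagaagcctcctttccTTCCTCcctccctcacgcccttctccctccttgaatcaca
Siglech: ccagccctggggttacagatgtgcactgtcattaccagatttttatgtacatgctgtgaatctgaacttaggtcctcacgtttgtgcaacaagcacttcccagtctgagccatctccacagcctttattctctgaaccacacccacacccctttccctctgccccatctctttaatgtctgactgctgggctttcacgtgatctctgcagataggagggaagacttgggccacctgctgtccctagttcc

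GAGGAA was searched on both strands and was found in 1 of the 4 windows, that of *Trem2*, 40 bases before the start. Of the 32851 windows of the same length, 23.3% hold it. The core letters AGAACA of a GR site were in none of the 4 windows and in 16.1% of all windows, and the palindrome of this core and its reverse complement, separated by any 3 bases, was in none of the 4 and in 0.00913% of all. GC content of the windows was 53.6% for *Cx3cr1*, 41.6% for *P2ry12*, 56.0% for *Trem2* and 50.8% for *Siglech*. A match or its absence describes these letters in these windows only.

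The 8 genes lie on 7 chromosomes (GRCm38, GENCODE M21). *Cx3cr1* (ENSMUSG00000052336) is on the minus strand at chr9:119901616-120069879, *P2ry12* (ENSMUSG00000036353) on the minus strand at chr3:59216272-59262871 and *Tmem119* (ENSMUSG00000054675) on the minus strand at chr5:113793729-113800516. *Csf1r* (ENSMUSG00000024621) is on the plus strand at chr18:61100598-61132149 and *Abi3* (ENSMUSG00000018381) on the minus strand at chr11:95830074-95842476. *Trem2* (ENSMUSG00000023992) is on the plus strand at chr17:48346401-48354147. *Tyrobp* (ENSMUSG00000030579) at chr7:30413760-30417585 and *Siglech* (ENSMUSG00000051504) at chr7:55768178-55778925 share a chromosome and the plus strand. All 8 are protein coding.

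Between 17492159 and 19931987 reads per library were counted on genes. Counts were scaled to a common depth with the TMM method, and such normalized counts are the scale of all values below unless another is named. A log2 fold change is corticosterone relative to vehicle from edgeR, so that a negative value is lower after corticosterone. With edgeR (quasi-likelihood test, p values adjusted by Benjamini-Hochberg), 16018 genes were tested, all 8 microglia genes among them, and 1 was differentially expressed. This was *Fkbp5*, a GR co-chaperone gene induced by glucocorticoids, which rose from 1957 ± 301 to 3310 ± 159 (SD, n = 4 each, log2 fold change 0.76, adjusted p = 0.0481). All corticosterone values of *Fkbp5* were above all vehicle values, but it passed in only 2 of the 8 fits that left out 1 library. Corticosterone replicate 5 stood apart: without it, 1651 genes passed the threshold. Of all reads, aligned or not, the share not unique was 0.0699% to 0.111% in vehicle and 0.0420% to 0.0536% in corticosterone libraries, without overlap. Reads not aligned were 6.35% to 7.13% in vehicle, 6.45% in corticosterone replicate 5 and 7.77% to 8.09% in replicates 6 to 8. Reads ambiguous between genes were 1.40% to 1.67%, 1.48% and 1.25% to 1.28%, in the same order. The part of these shares in the results was not tested. In bulk tissue, fewer microglia and less RNA of a gene per microglial cell cannot be told apart.

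The libraries contained clear microglial RNA. In vehicle, compared per length as RPKM with TMM-scaled depth, *Tyrobp* had 20.2 ± 2.94 and *Csf1r* 20.0 ± 0.990 (mean ± SD, n = 4), and the ranges of these 2 genes overlapped. *Cx3cr1* (13.4 ± 0.626) and *P2ry12* (13 ± 1.6) followed, also with overlapping ranges. *Tmem119* (10.3 ± 0.859), *Siglech* (4.29 ± 0.114), *Trem2* (2.24 ± 0.155) and *Abi3* (0.947 ± 0.103) came next, each with a range apart from its neighbours. On this scale *Tyrobp* and *Csf1r* were at percentiles 83.8 and 83.6 of 15989 tested genes, *Cx3cr1* at 75.8 and *Abi3* at 19.9. After corticosterone the level of *Cx3cr1* per length was 7.90 ± 1.89, below *P2ry12* (9.39 ± 1.46) and *Tmem119* (8.02 ± 2.48), and its mean moved from rank 3 to rank 5 of the 8. The ranges of these 3 genes overlapped after corticosterone (6.01 to 9.96 for *Cx3cr1*, 8.28 to 11.5 for *P2ry12* and 5.99 to 11.6 for *Tmem119*), and *Tmem119* was below *Cx3cr1* in replicates 6 and 8. When the longest transcript instead of all exons gave the length, *Csf1r* was rank 1, *Tyrobp* rank 2, *P2ry12* rank 3 and *Cx3cr1* rank 4 in vehicle. The length of *Trem2* was 4946 bases by all exons and 4784 by the longest transcript, and that of *Abi3* 4153 and 4006. Which transcripts were present was not tested, and part of the *Abi3* exons overlaps other genes. The levels and ranks of *Trem2* and *Abi3* per length therefore hold for these lengths only.

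*Cx3cr1* had 1108, 1180, 1123 and 1225 normalized counts in vehicle replicates 1 to 4. It had 860, 519, 570 and 778 in corticosterone replicates 5 to 8. Every corticosterone library was below every vehicle library, with replicates 6 and 7 lowest. The mean was 1159 ± 54.0 in vehicle and 681 ± 163 after corticosterone, a difference of -41.2% and a log2 fold change of -0.76 (SE 0.135). The spread between mice was wider after corticosterone. With 478 to 1241 reads per library, *Cx3cr1* is well covered.

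*P2ry12*, the ADP receptor, had 590, 610, 585 and 749 normalized counts in vehicle and 404, 426, 439 and 562 after corticosterone. The groups did not overlap, but the highest corticosterone library, replicate 8, was close to the lowest vehicle library, and vehicle replicate 4 was well above the other vehicle libraries. Its mean was 634 ± 77.8 in vehicle and 458 ± 71.1 after corticosterone, with a log2 fold change of -0.47 (SE 0.118).

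*Csf1r*, the receptor for CSF1 and IL-34, was the member with most reads. It had 2239, 2120, 2358 and 2139 normalized counts in vehicle and 2390, 1838, 1810 and 1977 after corticosterone. Replicate 5 was above all vehicle libraries and the other 3 corticosterone libraries were below all of them, so the groups overlapped. The log2 fold change was -0.14 (SE 0.089).

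*Trem2* had 205, 233, 199.5 and 211 normalized counts in vehicle and 227, 185.5, 151 and 178 after corticosterone. Its adaptor *Tyrobp* had 237, 268, 306 and 221 in vehicle and 251, 234, 231 and 201 after corticosterone. *Siglech*, which uses the same adaptor, had 289, 273, 276 and 273 in vehicle and 295, 271, 261 and 257 after corticosterone. The groups overlapped for all 3 genes. Their log2 fold changes were -0.19 (SE 0.129) for *Trem2*, -0.17 (SE 0.122) for *Tyrobp* and -0.035 (SE 0.091) for *Siglech*. *Siglech* had the narrowest spread of the 8 genes, with an SD within groups of 0.068 on the log2 scale, against 0.251 for *Cx3cr1* and 0.315 for *Abi3*, the widest.

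*Tmem119*, the membrane marker, had 490, 433, 488 and 416 normalized counts in vehicle and 513, 266, 298 and 345 after corticosterone. The overlap came from replicate 5 alone, which was above every vehicle library. The mean was 457 ± 38.1 in vehicle and 355 ± 110 after corticosterone, with a log2 fold change of -0.36 (SE 0.168), and -0.59 without replicate 5.

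*Abi3*, the actin regulator, had 64.8, 75.4, 76.3 and 84.9 normalized counts in vehicle and 59.5, 41.2, 29.4 and 50.7 after corticosterone. Every corticosterone library was below every vehicle library. The log2 fold change was -0.73 (SE 0.206), from 28 to 86 reads per library, so that counting error is larger here than for *Cx3cr1*. Exons of *Abi3* overlap those of *Zfp652*, *Phospho1* and *Gngt2* on the opposite strand. Whether the counting used strand is not given in the sources used here, and reads of these genes may then not be separated. *Zfp652* had a log2 fold change of 0.11 and *Gngt2* of 0.082, while *Phospho1* was too low to be tested. Exons of *Cx3cr1*, *P2ry12* and *Csf1r* also overlap an opposite gene, and the log2 fold change of the neighbour of *Csf1r*, *Hmgxb3*, was -0.014.

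**Figure D1:**
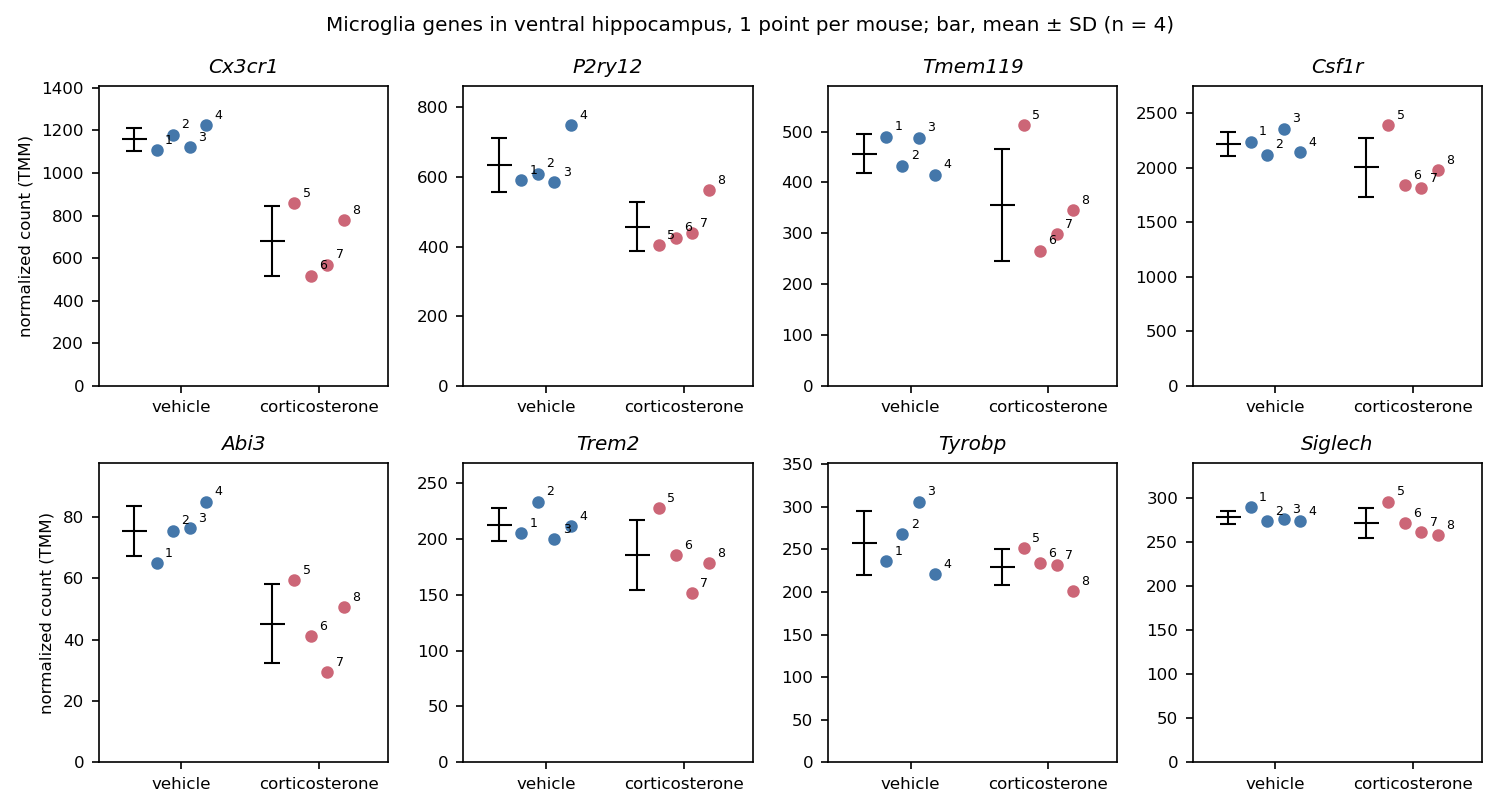
Normalized counts (y axis, linear from 0, TMM) of the 8 microglia genes, 1 point per mouse numbered by replicate, with mean ± SD (n = 4) beside each group. *Cx3cr1*, *P2ry12* and *Abi3* show no overlap between vehicle and corticosterone, and corticosterone replicate 5 is above the vehicle libraries for *Tmem119*, *Csf1r* and *Siglech*.

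All 8 log2 fold changes were below 0, with a median of -0.28, where 49.3% of all tested genes were below 0 and the median of all was 0.0036. By the adjusted p, 0 of the 8 genes passed, where 0.00624% of all genes did in either direction. At an unadjusted p under 0.05 with a lower value, 3 of the 8 genes passed (*Cx3cr1*, *P2ry12* and *Abi3*), where 4.52% of all genes did, and 0 of the 8 with a higher value, where 4.51% did. The same 3 genes were those whose values did not overlap, where 1.68% of all genes were lower without overlap and 1.99% higher. With DESeq2, 1 of the 8, *Cx3cr1*, was lower at an adjusted p under 0.05, where 0.119% of 16826 genes were. With no filter on low counts, 2 of the 8 were (*Cx3cr1* and *P2ry12*), where 0.109% of 27483 genes were. The same 2 were lower with the trend of GC content and length removed (0.0499% of all genes), and 0 of the 8 without vehicle replicate 1 (0.00618%). The choice of the genes used this contrast.

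The corticosterone libraries differed from each other in the whole set. Replicate 5 was the highest corticosterone library for 7 of the 8 genes, *P2ry12* being the exception, and was below the vehicle range for only 3 of them. Replicates 6 and 7 were below the vehicle range for 7 genes each, and replicate 8 for all 8. The share of all genes below the vehicle range was not counted per library, so nothing about the 8 genes is read from these counts. The sum of the 8 genes was 5193 to 5412 in vehicle. It was 4999 in replicate 5 and 3781 to 4348 in the other corticosterone libraries. Without replicate 5, the log2 fold change of *Cx3cr1* was -0.90, that of *Abi3* -0.89, that of *Csf1r* -0.24 and that of *P2ry12* -0.41. In that fit 5 of the 8 genes had an adjusted p under 0.05 with a lower value (*Cx3cr1*, *P2ry12*, *Tmem119*, *Csf1r* and *Abi3*), where 6.47% of 16181 genes did. This count too uses the contrast on which the genes were chosen.

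*Cx3cr1* was also set against other RNA of the same cells in each library. The reference was the sum of 21 genes that microglia and macrophages express in any state, such as *Aif1*, *Cd68*, *Ctss* and the *C1q* genes. *Cx3cr1* amounted to 17.4%, 17.5%, 18.4% and 20.9% of this sum in vehicle replicates 1 to 4. After corticosterone it amounted to 13.4%, 9.96%, 10.6% and 13.6%. All corticosterone ratios were below all vehicle ratios, with a mean difference of -0.65 on the log2 scale, compared with -0.76 for *Cx3cr1* itself. Against *Csf1r* alone, the ratio was 47.6% to 57.3% in vehicle and 28.2% to 39.3% after corticosterone, and against *Siglech* it was 384% to 448% and 191% to 302%. Replicate 5, which was high for most of the set, was inside the corticosterone range of all 3 ratios. The ratio to *Trem2* differed by -0.59 and that to *Tmem119* by -0.39 on the log2 scale, both without overlap. The ratio of *Cx3cr1* to *Abi3* differed by -0.018, that to *Tyrobp* by -0.63 and that to *P2ry12* by -0.32 on the log2 scale, and in these cases the groups overlapped. The ratio of *Abi3* to the 21 genes differed by -0.63 without overlap, and that of *P2ry12* by -0.33 with overlap.

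**Figure D2:**
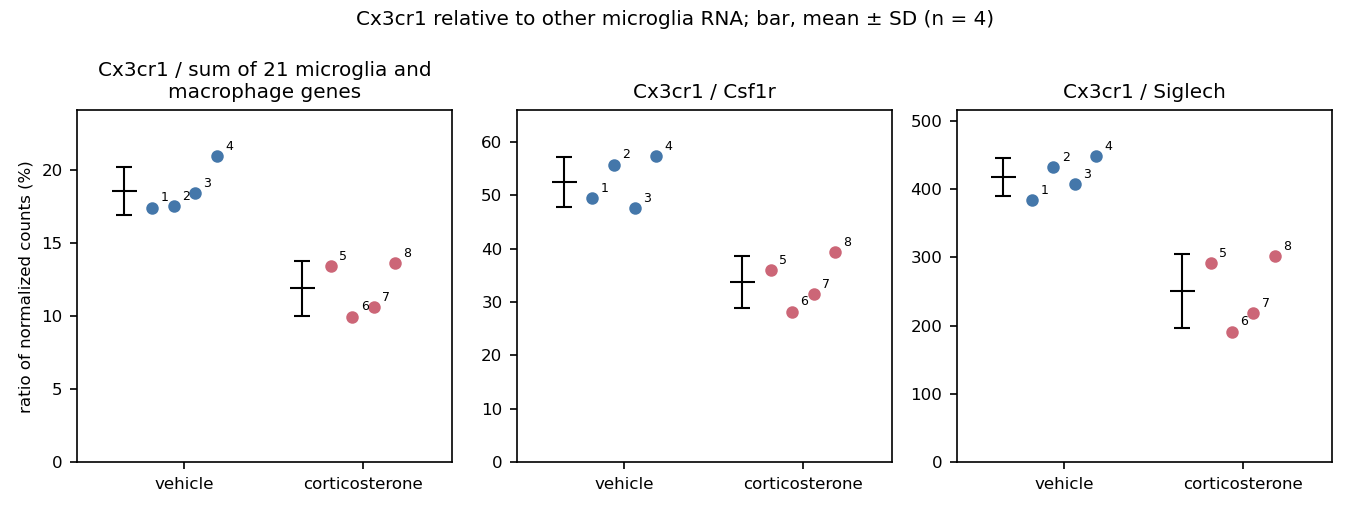
Ratio of the normalized count of *Cx3cr1* to the sum of 21 microglia and macrophage genes, to *Csf1r* and to *Siglech*, in percent (y axis, linear from 0), 1 point per mouse numbered by replicate, with mean ± SD (n = 4). Every corticosterone mouse is below every vehicle mouse, for example 9.96% to 13.6% against 17.4% to 20.9% for the 21 genes.

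The 21 reference genes themselves were summed to 5850 to 6737 in vehicle and 5204 to 6401 after corticosterone, with overlap. Of the 21, 18 were lower and 3 higher, with a median log2 fold change of -0.12, and 0 passed the edgeR test. At an unadjusted p under 0.05, 3 were lower and 0 higher (4.52% and 4.51% of all genes), and with DESeq2 1 was lower (0.119% of all). These 3 were *Unc93b1*, which carries Toll-like receptors to the endosome (273 ± 43.8 to 169 ± 30.6, log2 fold change -0.69, adjusted p = 0.231), the lysosomal gene *Laptm5* (-0.25, adjusted p = 0.418) and *Arhgap45* (-0.51, adjusted p = 0.506). The complement genes *C1qa* (-0.13), *C1qb* (-0.10) and *C1qc* (-0.19) and the cytoskeletal marker *Aif1* (-0.21) had adjusted p values of 0.589 to 0.741. Without corticosterone replicate 5, *Unc93b1* (-0.82), *Laptm5* (-0.29), *Arhgap45* (-0.70) and *C1qc* (-0.34) passed, where 6.47% of all genes were lower. With the trend of GC content and length removed, *C1qa* was at 0.022 and *C1qb* at 0.016.

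Other homeostatic genes were of mixed direction. Of 14, 10 were lower and 4 higher, with a median log2 fold change of -0.14, and 0 passed with edgeR or DESeq2. At an unadjusted p under 0.05, 5 were lower and 1 higher (4.52% and 4.51% of all genes). Their sum was 8512 to 9080 in vehicle and 8339 to 9424 after corticosterone. *P2ry13*, a purinergic receptor beside *P2ry12* in the genome, had a log2 fold change of -0.60 (151 ± 33.8 to 99.5 ± 22.7, adjusted p = 0.455), and it passed at -0.70 without corticosterone replicate 5. *Olfml3*, a secreted protein gene, was at -0.30 (434 ± 23.3 to 353 ± 26.7, adjusted p = 0.439), with all corticosterone values below all vehicle values. In the other direction, *Mertk*, a receptor for the uptake of dead cells, was 1014 ± 68.1 in vehicle and 1211 ± 69.9 after corticosterone (0.26, adjusted p = 0.414).

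**Figure D3:**
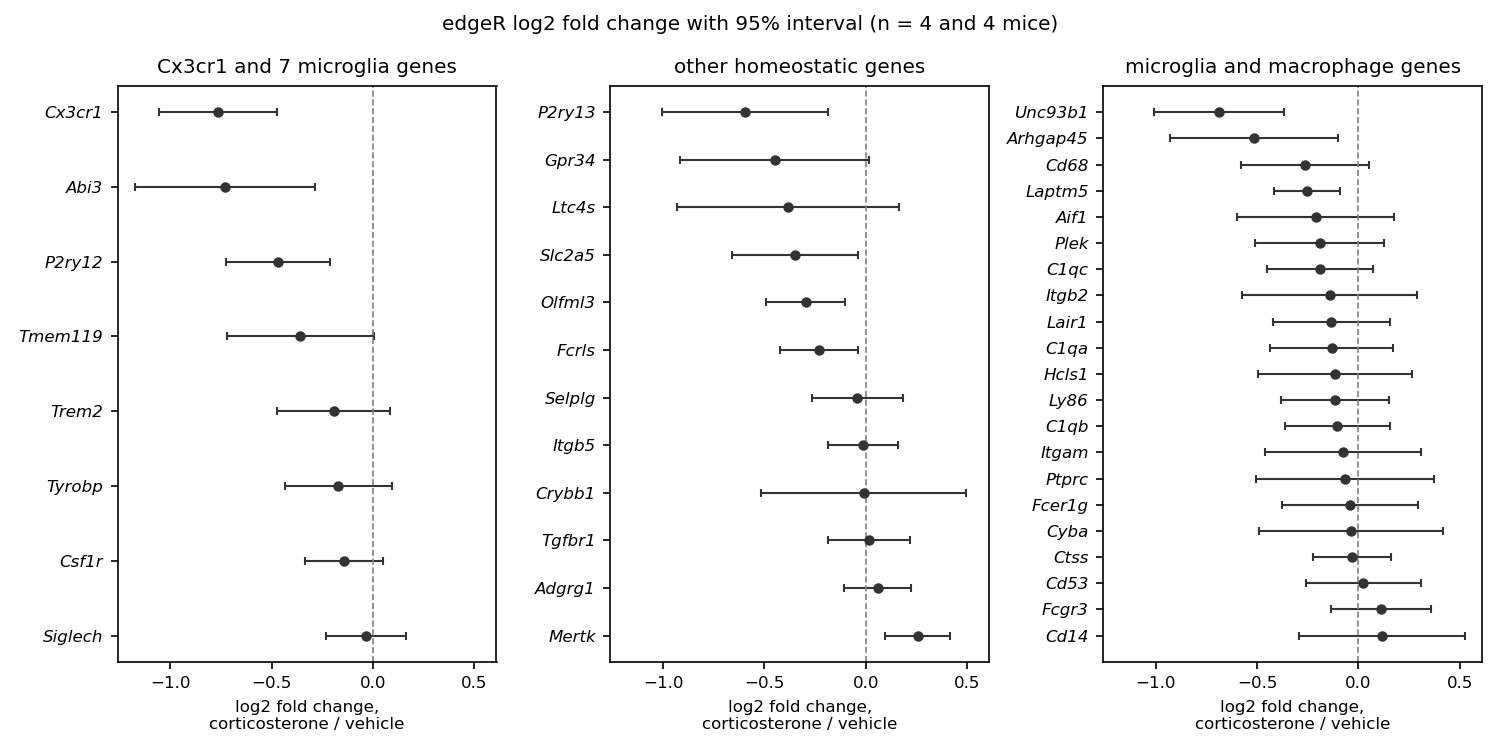
Log2 fold change of corticosterone relative to vehicle from edgeR with its 95% interval (x axis), for the 8 microglia genes, 12 of the 14 other homeostatic genes and 21 genes of microglia and macrophages in any state. The 8 genes run from -0.76 (*Cx3cr1*) to -0.035 (*Siglech*), and the 12 homeostatic genes from -0.60 (*P2ry13*) to 0.26 (*Mertk*).

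For the ligands and signalling partners, 12 of 23 genes were lower and 11 higher, with a median log2 fold change of -0.020. None passed the edgeR or the DESeq2 test, and at an unadjusted p under 0.05 1 was lower and 1 higher (4.52% and 4.51% of all genes). *Cx3cl1*, the neuronal ligand of CX3CR1, had 12473, 12433, 13760 and 11892 normalized counts in vehicle and 13294, 10648, 10949 and 10097 after corticosterone. The groups overlapped through replicate 5 (-0.17, adjusted p = 0.546). The CSF1R ligands *Csf1* (-0.10, adjusted p = 0.642) and *Il34* (-0.17, adjusted p = 0.623) and the TREM2 ligand *Apoe* (-0.22, adjusted p = 0.620) did not pass either. *Inpp5d*, a phosphatase that dampens TYROBP signalling, was at -0.37 (255 ± 19.1 to 198 ± 35.0, adjusted p = 0.499), and the kinase *Syk* at 0.13 (adjusted p = 0.734). *Gnai2*, which couples CX3CR1 and P2RY12, was at -0.18 (adjusted p = 0.546), and *Nt5e*, which makes adenosine, at 0.49 (adjusted p = 0.545). Without corticosterone replicate 5, 5 of these genes passed: *Apoe* (-0.43), *Il34* (-0.31), *Cx3cl1* (-0.26), *Gnai2* (-0.27) and *Inpp5d* (-0.47), where 6.47% of all genes were lower. *Adam10*, a sheddase of fractalkine, was at 0.13 and *Wasf2*, of the actin complex, at 0.20.

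Among the transcription factors and TGF-beta genes of the microglial programme, 9 of 15 were lower and 6 higher, with a median of -0.062. None passed the edgeR or the DESeq2 test, and at an unadjusted p under 0.05 5 were lower and 1 higher (4.52% and 4.51% of all genes). *Sall1*, a factor of microglial identity, had 356, 375, 384 and 380 normalized counts in vehicle and 330, 245, 185 and 266 after corticosterone, without overlap (-0.54, adjusted p = 0.332). *Tgfb1*, the cytokine that maintains this identity, had 93.3, 102, 128 and 104 in vehicle and 84.8, 55.3, 65.2 and 58.5 after corticosterone, also without overlap (-0.69, adjusted p = 0.290). *Spi1* (-0.53, adjusted p = 0.545), *Irf8* (-0.45, adjusted p = 0.512) and *Fli1* (-0.70, adjusted p = 0.477), factors of the myeloid lineage, overlapped between the groups. *Ikzf1*, another haematopoietic factor, was on the other side at 0.58 (adjusted p = 0.439), as were *Runx1* (0.49) and *Cebpa* (0.20). Without corticosterone replicate 5, *Sall1* (-0.69), *Tgfb1* (-0.84) and *Fli1* (-0.83) passed, where 6.47% of all genes were lower.

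**Figure D4:**
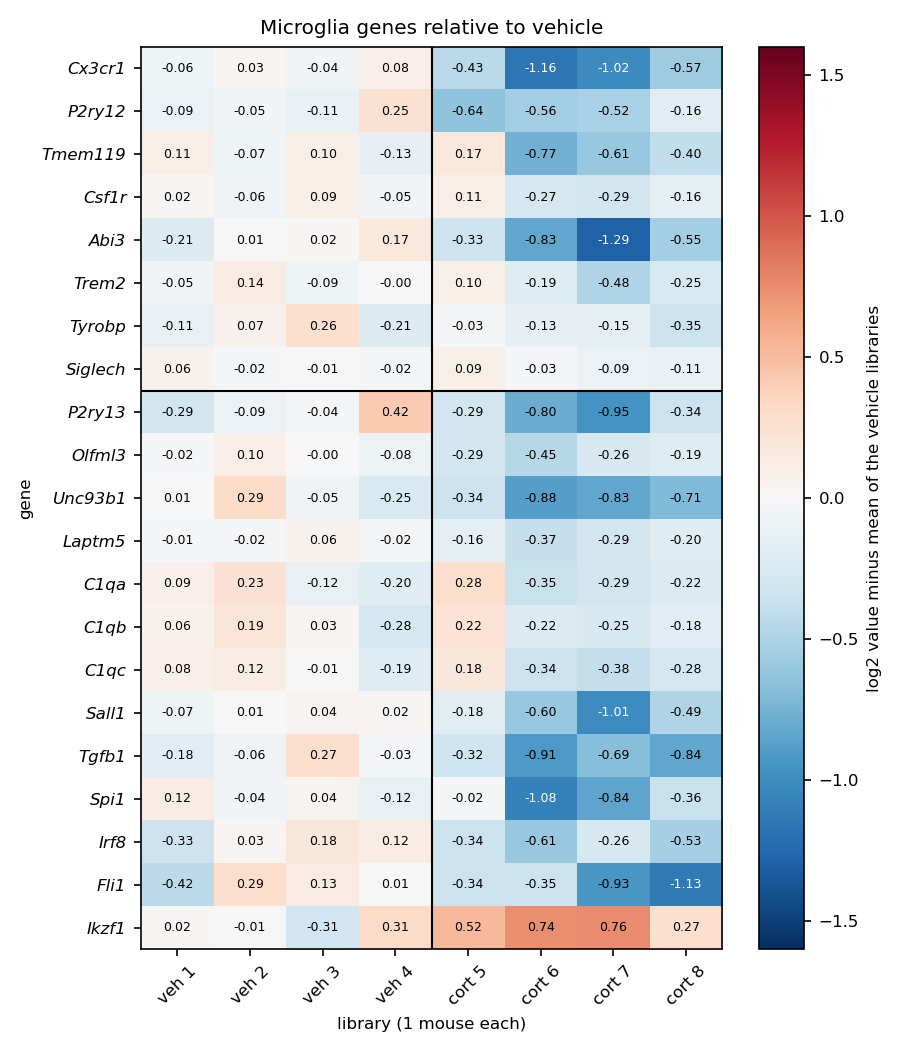
Log2 value minus the mean of the vehicle libraries (colour, blue lower and red higher) for the 8 microglia genes (above the line) and 13 related genes, in each library (x axis, vehicle left of the line). In the *Cx3cr1* row, the corticosterone values run from -1.16 in replicate 6 to -0.43 in replicate 5, and *Ikzf1* is above the vehicle mean in all 4.

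To see which genes have values near those of *Cx3cr1* over the 8 libraries, a root mean square difference of log2 values was used. Each gene was centred on its mean over the 8 libraries. This difference was computed for 12931 genes with a mean of at least 50 normalized counts, and its median was 0.471. It holds the difference between the treatments, on which *Cx3cr1* was chosen, and does not separate it from variation within a treatment. The 5 nearest genes outside the set were *Fgfrl1* (0.1109), *Cdc42ep1* (0.164), *Bin2* (0.183), *Tnfaip6* (0.185) and *Sall1* (0.189). Their log2 fold changes were, in this order, -0.79, -0.67, -0.47, -0.84 and -0.54. Of the set, *Abi3* was nearest at 0.165, followed by *Tmem119* (0.251) and *P2ry12* (0.284), and *Siglech* was farthest at 0.431. *Fgfrl1* had 244, 277, 296 and 287 normalized counts in vehicle and 206, 131, 141 and 158 after corticosterone, with replicate 5 highest and replicate 6 lowest of its group, as for *Cx3cr1*. *Tnfaip6* had 135 to 174 in vehicle and 71.5 to 104 after corticosterone. These genes were chosen by their values, so no test is given.

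Genes of activated microglia differed widely in level, with 10 of 21 below the filter and *Ctsd* at 3067 ± 233 in vehicle. Of 21, 11 were tested, and of these 7 were lower and 4 higher with a median of -0.048. None passed the edgeR test, 2 were higher at an unadjusted p under 0.05 (4.51% of all genes) and 1 was higher with DESeq2 (0.256% of all) and with no filter on low counts (0.178%). That gene was *Spp1* (osteopontin), which had 41.2, 86.2, 34.2 and 32.6 normalized counts in vehicle and 99.4, 167, 94.6 and 121 after corticosterone (log2 fold change 1.31, adjusted p = 0.239). All its corticosterone values were above all vehicle values, and it passed at 1.39 without corticosterone replicate 5, where 3.73% of all genes were higher. The antigen presentation genes *H2-Aa* (1.28, adjusted p = 0.476) and *Cd74* (0.60, adjusted p = 0.546) overlapped between the groups, as did the inflammasome gene *Nlrp3* (-0.74, adjusted p = 0.557).

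Other cells could contribute to several of these genes, and the counts of their markers at an unadjusted p under 0.05 are to be set beside 4.52% of all genes lower and 4.51% higher. Of the 8 markers of perivascular and meningeal macrophages, 6 were tested and 5 of these were higher and 1 lower. Their sum was 347 to 454 in vehicle and 300 to 442 after corticosterone, none passed, and 1 had an unadjusted p under 0.05 (*Lyve1*, 0.89, adjusted p = 0.466). All 10 markers of blood leukocytes were below the filter, with sums of 4.91 to 23.5 in vehicle and 10.7 to 17.4 after corticosterone, and *Cd3g* had 0 reads. The 4 endothelial markers were all lower, with sums of 1452 to 1596 in vehicle and 1197 to 1331 after corticosterone, without overlap, and 2 had an unadjusted p under 0.05. The 5 oligodendrocyte markers were all lower too, with sums of 55242 to 96990 in vehicle and 54132 to 66847 after corticosterone, and 2 had an unadjusted p under 0.05. Of the 6 astrocyte markers, 5 were lower and 1 higher, 1 with an unadjusted p under 0.05, and their sums were 43077 to 47175 in vehicle and 40830.4 to 45736 after corticosterone. Of the 3 pericyte markers, 1 was lower, without overlap and with an unadjusted p under 0.05, and 2 higher, with sums of 1477 to 1729 and 1341 to 1892. The 2 markers of oligodendrocyte precursors went in opposite directions, each with an unadjusted p under 0.05, and their sums were 1408 to 1448 and 1460.2 to 1488, without overlap. The 5 erythrocyte markers were all lower as well (median log2 fold change -0.53, 1 with an unadjusted p under 0.05), with sums of 1591 to 5045 in vehicle, the highest in replicate 2, and 1545 to 2013 after corticosterone. Of the 4 choroid plexus markers, 3 were tested, with 2 higher, 1 of them with an unadjusted p under 0.05, 1 lower and a median of 0.66. Their sums were 406 to 1290.5 in vehicle and 605 to 1326 after corticosterone. None of these markers passed the edgeR test, and *Folr1* had 0 reads in vehicle replicate 4. The part of these cells in the values of *Cx3cr1*, *Spp1* or *Lyve1* was not tested. Neuronal markers, which define the tissue, were summed to 116124 to 130508 in vehicle and 118632 to 125515 after corticosterone, and 1 of the 6 was lower at an unadjusted p under 0.05. The receptor gene *Nr3c1* (GR) was at -0.21 (adjusted p = 0.546).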

How the data were processed

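Ventral hippocampus RNA of 8 mice was sequenced (stranded, paired reads of 100 bases). Per the study's methods and the submitters' processing notes, the authors aligned the reads to mm10 with GSnap and used HTSeq for gene counts. The deposited values are raw counts, not normalized. The annotation release and the strand setting are not given in the sources used here. All 8 columns were assigned to vehicle or corticosterone from the labels. Summary lines for reads on no gene, ambiguous, not unique, not aligned or of low alignment quality were left out of library sizes. Of all reads, aligned or not, 84.6% to 86.3% were on genes. Of the 50686 identifiers, 50462 were found in GENCODE M21 (GRCm38).

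Counts were normalized with TMM, reduced by filterByExpr and compared by the edgeR 4.0.16 quasi-likelihood test (R 4.3.3), with a threshold of 0.05 after Benjamini-Hochberg adjustment over 16018 genes and a prior count of 2 for log2 values. The biological coefficient of variation was 0.111. The scripts were tested on simulated data. Alternatives were DESeq2 1.42.0, other filters and normalizations, each library left out in turn, and, added after the data had been seen, removal of the trend with GC content and length (splines with 5 degrees of freedom). Total counts on genes differed by little between libraries, and counting error matters mainly for genes with few reads, such as *Abi3*.

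Named genes were the 8 microglia genes, up to 3 genes per direction with the smallest p in each microglia list, a fixed set of ligands, regulators and markers, and the 5 genes nearest to *Cx3cr1*. Some single genes under this rule stay in the list counts and are not reported here. The members and lists were chosen with earlier results of these data known. Promoter sequences are from RefSeq (GRCm38.p6). P values set the difference between the treatments against the spread between these mice.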

Additional observations from a re-analysis of the deposited data

Results flagged for a closer look

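Of 114 sets of 4 values examined (the named genes and the ratio of *Cx3cr1* to the 21 microglia and macrophage genes, in each treatment), 14 held a library that stood far off the remaining 3. At 1 in 20 sets, 5.7 would by chance, if the sets were independent and not picked by their values. Here the sets share libraries and many genes were picked by their values, so no excess is read from the 14. Among the 8 microglia genes, the values that stood off were *P2ry12* in vehicle replicate 4 (749 normalized counts, the others 585 to 610) and *Siglech* in vehicle replicate 1 (289, the others 273 to 276).

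Corticosterone replicate 5 was far above the other 3 corticosterone libraries for 8 genes. It had 29427 normalized counts of *Apoe* (the others 17775 to 18675), 86.8 of *Arhgap45* (53.2 to 57.8), 712 of *C1qa* (459 to 502), 990.3 of *C1qb* (716 to 754), 949 of *C1qc* (644 to 692), 3438 of *Ctsd* (2557 to 2692), 4244 of *Gnai2* (3318 to 3452) and 1194 of *Il34* (806 to 867). In each of the 8, the other corticosterone libraries lay close together.

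The other 4 were *Cd163* in corticosterone replicate 8 (32.2, the others 21.02 to 22.8), *Laptm5* in vehicle replicate 3 (855, the others 806 to 811), and, in vehicle replicate 2, *Spp1* (86.2, the others 32.6 to 41.2) and *H2-Aa* (20.6, the others 4.94 to 5.89).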

How the results depend on the processing

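The 8 microglia genes had a negative log2 fold change in every fit. Leaving out 1 library, *Cx3cr1* ranged from -0.90 to -0.65, *P2ry12* from -0.59 to -0.38, *Abi3* from -0.89 to -0.57, *Tmem119* from -0.59 to -0.24, *Csf1r* from -0.24 to -0.098, *Trem2* from -0.31 to -0.11, *Tyrobp* from -0.24 to -0.081 and *Siglech* from -0.079 to -0.014. With the trend of GC content and length removed, *Cx3cr1* was at -0.77, *P2ry12* at -0.60, *Abi3* at -0.57, *Tmem119* at -0.23, *Trem2* at -0.19, *Siglech* at -0.11, *Tyrobp* at -0.084 and *Csf1r* at -0.080. That setting was added once the data had been seen.

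The number of genes past the threshold, 1 in the edgeR fit, was 63 with DESeq2, 79 with no filter, 0 with at least 10 counts in every library, 21 with the trend removed and 0 to 1651 when 1 library was left out (1651 without corticosterone replicate 5, 19 without vehicle replicate 1). The cause was not tested. *Fkbp5* had an adjusted p of 0.053 with at least 10 counts in every library.

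In the lists, 1 of the 21 microglia and macrophage genes was lower past the threshold with DESeq2 (0.119% of all genes), with no filter (0.109%) and with the trend removed (0.0499%). With no filter 1 regulator was lower, and 1 reactive gene was higher with DESeq2 (0.256%) and with no filter (0.178%). With 1 library left out, 0 to 1 homeostatic, 0 to 4 microglia and macrophage, 0 to 5 partner, 0 to 3 regulator and 0 to 1 reactive genes passed, the highest each without corticosterone replicate 5, where 6.47% of all genes were lower and 3.73% higher. The median log2 fold change ranged from -0.28 to -0.090 for the homeostatic genes and from -0.20 to -0.055 for the microglia and macrophage genes. It turned sign for the partners (-0.061 to 0.014) and the reactive genes (-0.10 to 0.011).

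Directions turned for *C1qa* (0.022), *C1qb* (0.016) and *Cd53* (-0.094) with the trend removed, and, with 1 library left out, for *Adgrg1* (-0.0057 to 0.11), *Cd14* (-0.0025 to 0.20), *Cd53* (-0.069 to 0.092) and *Mrc1* (-0.00059 to 0.63). Among genes that did not pass, single libraries also moved other values, such as *Syk* (0.014 to 0.22), *Cebpa* (0.058 to 0.33), *Nr3c1* (-0.29 to -0.087) and *Nlrp3* (-0.96 to -0.39). Further examples were *H2-Aa* (1.07 to 2.01), *Runx1* (0.25 to 0.80), *Nt5e* (0.28 to 0.61) and *Aif1* (-0.31 to -0.094). No paired analysis was possible because no replicate number occurs in both treatments. With 4 mice per group and few reads, small changes of *Abi3* and other low genes cannot be detected.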
